A study of Rattus norvegicus with 82 samples.

Results

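Gene expression in the rat amygdala was compared with that in the frontal cortex over 22 arrays, 12 of amygdala and 10 of frontal cortex, out of 82 arrays in the series. The members were every array whose title carries the region code of the amygdala and every array whose title carries that of the frontal cortex. Another 2 arrays titled as frontal cortex carry no code, treatment or time of day and were left out. The series holds total RNA from 7 brain regions of rats under 3 treatments (ADX, pADX and Sham) at 2 times of day (AM and PM). The amygdala was represented by 4 ADX, 4 pADX and 4 Sham arrays, with 2 AM and 2 PM arrays in each treatment. The frontal cortex was represented by 3 ADX arrays (1 AM, 2 PM), 4 pADX arrays (2 AM, 2 PM) and 3 Sham arrays (1 AM, 2 PM). In this field ADX usually abbreviates adrenalectomy, an operation that removes the source of corticosterone, and a Sham animal has the operation without the removal. The labels used here do not explain the letter p, and no strain, sex or age was found in them. Because both regions were present in every treatment and at both times, treatment and time of day entered the comparison as covariates.

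The amygdala is a group of nuclei in the temporal lobe, known for its part in fear, social behaviour and the autonomic and hormonal response to stress. Its basolateral nuclei hold glutamate neurons resembling those of cortex, while its central and medial nuclei hold mainly GABA neurons and many neuropeptides. The frontal cortex is a layered sheet of glutamatergic projection neurons with local GABA interneurons, whose layers and cell classes are known by transcription factors, ion channels and calcium-binding proteins.

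All 22 arrays shared 1 scale as deposited, with a trimmed mean of 150.04 to 150.05 intensity units. Median deposited signal was between 50.5 and 60.1 on amygdala arrays and between 44.7 and 56.2 on frontal cortex arrays. The 3'/5' signal ratio of GAPDH, a measure of RNA quality, was 1.07 to 1.26 on amygdala arrays and 1.07 to 1.18 on frontal cortex arrays. Of the frontal cortex arrays 2 stood apart from the rest of their region, Sham PM replicate 2 and Sham AM replicate 2, with mean correlations to the other frontal cortex arrays of 0.924 and 0.952. Both belong to the 3 Sham arrays of that region, so results within Sham rest on few arrays.

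Of 31042 probe sets, 6973 differed between amygdala and frontal cortex at a Benjamini-Hochberg adjusted p of 0.05 in limma, which is 22.5%. They split into 3399 higher in the amygdala (10.9%) and 3574 lower (11.5%). Most differences were small, since 562 of the 6973 reached 1 log2 unit, 290 higher (0.934% of all probe sets) and 272 lower (0.876%). The 12 amygdala arrays and the 10 frontal cortex arrays did not overlap for 576 probe sets that were higher (1.86%) and for 624 that were lower (2.01%). Without both Sham arrays that stood apart the count was 6091, with 3072 higher and 3019 lower. With the brightest probe set taken for each of 14217 named genes, 1880 genes were higher (13.2%) and 2002 lower (14.1%), and these shares are the background for every gene list below. By gene, the regions did not overlap for 355 that were higher (2.5%) and for 397 that were lower (2.79%). In whole tissue, fewer cells of a type and less RNA per cell cannot be told apart.

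Among genes that passed the test, did not overlap between the regions and averaged at least 7 log2 units in the higher region, Nr2f2 had the largest difference. Nr2f2 encodes the orphan nuclear receptor COUP-TFII, a transcription factor of forebrain patterning and interneuron migration. Its normalized log2 signal was 9.47 to 10.08 with a median of 9.80 on amygdala arrays, against 5.85 to 6.73 with a median of 6.48 on frontal cortex arrays. Every amygdala array lay more than 2 log2 units above every frontal cortex array. The fitted difference was 3.40 (95% confidence interval 3.19 to 3.60), a 10.5-fold higher level in the amygdala (adjusted p = 7.06e-14).

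Trhr, a receptor for thyrotropin-releasing hormone, had a log2 signal of 7.58 to 8.35 with a median of 7.91 in the amygdala, against 4.51 to 5.65 with a median of 5.17 in the frontal cortex, a difference of 2.81 (adjusted p = 8.93e-12). Cartpt, the precursor of the CART peptides known from feeding and stress circuits, had 7.56 to 8.26 with a median of 7.91, against 4.83 to 6.61 with a median of 5.39, a difference of 2.37 (adjusted p = 4.57e-09). The highest frontal cortex array stayed below the lowest amygdala array for both genes. Htr2c, a serotonin receptor that couples to phospholipase C, had 9.93 to 10.60 with a median of 10.33 in the amygdala, against 8.0 to 8.50 with a median of 8.39 in the frontal cortex, 3.91-fold higher (adjusted p = 1.41e-12).

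A second set of genes higher in the amygdala concerned transmitter identity and calcium. Slc17a6, the vesicular glutamate transporter VGLUT2 of subcortical neurons, had a log2 signal of 7.90 to 8.85 with a median of 8.53 in the amygdala, against 5.75 to 7.01 with a median of 6.31 in the frontal cortex, a difference of 2.03 (adjusted p = 7.77e-10). Slc17a7, the transporter VGLUT1 of cortical neurons, did not pass the test, with 9.22 to 10.32 with a median of 9.76, against 9.42 to 10.09 with a median of 9.93, and a difference of -0.09 (95% confidence interval -0.38 to 0.21, adjusted p = 0.762). Thus VGLUT2 separated every amygdala array from every frontal cortex array, and VGLUT1 overlapped. Calb2, the calcium-binding protein calretinin, had 8.03 to 8.57 with a median of 8.24 in the amygdala, against 5.39 to 6.22 with a median of 5.99 in the frontal cortex, a difference of 2.33 (adjusted p = 4.4e-12).

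The imprinted genes Nnat and Plagl1 were both among the 15 largest. Imprinted genes were not among the lists described here, and no share of them was counted. Nnat, which encodes neuronatin, a small membrane protein, had a log2 signal of 11.11 to 12.05 with a median of 11.76 in the amygdala, against 9.02 to 9.37 with a median of 9.20 in the frontal cortex, 5.52-fold higher (adjusted p = 7.83e-12). Plagl1, a zinc finger transcription factor, had 6.40 to 7.72 with a median of 6.98, against 4.0 to 5.39 with a median of 4.49. With 1 frontal cortex array at the measurement floor of 4 log2 units, the fitted Plagl1 difference was 2.42 (adjusted p = 5.2e-08) and the fold of the group means was at least 5.46-fold. Dlk1, another imprinted gene, which encodes a Notch-related protein, differed by 1.31 (adjusted p = 6.25e-08), at least 2.46-fold by the group means (as for every such bound below), with 5 frontal cortex arrays at the floor.

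The remaining genes with the largest differences upward were Avp, described with the neuropeptides, and Cpne7, Arhgap6, Lpl, Apoc1, Nkain3 and Igsf1. Cpne7, a calcium-dependent phospholipid-binding copine, and Arhgap6, a GTPase-activating protein, were higher by 2.67 and 2.55. Lpl, lipoprotein lipase, and Apoc1, an apolipoprotein, were higher by 2.19 and 1.99. Nkain3, an interaction partner of the sodium pump, and Igsf1, an immunoglobulin-domain membrane protein, were higher by 1.93 and 1.78. For these 6 genes adjusted p lay between 4.35e-13 and 5.53e-08, and no amygdala array reached down to a frontal cortex array.

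**Figure D1:**
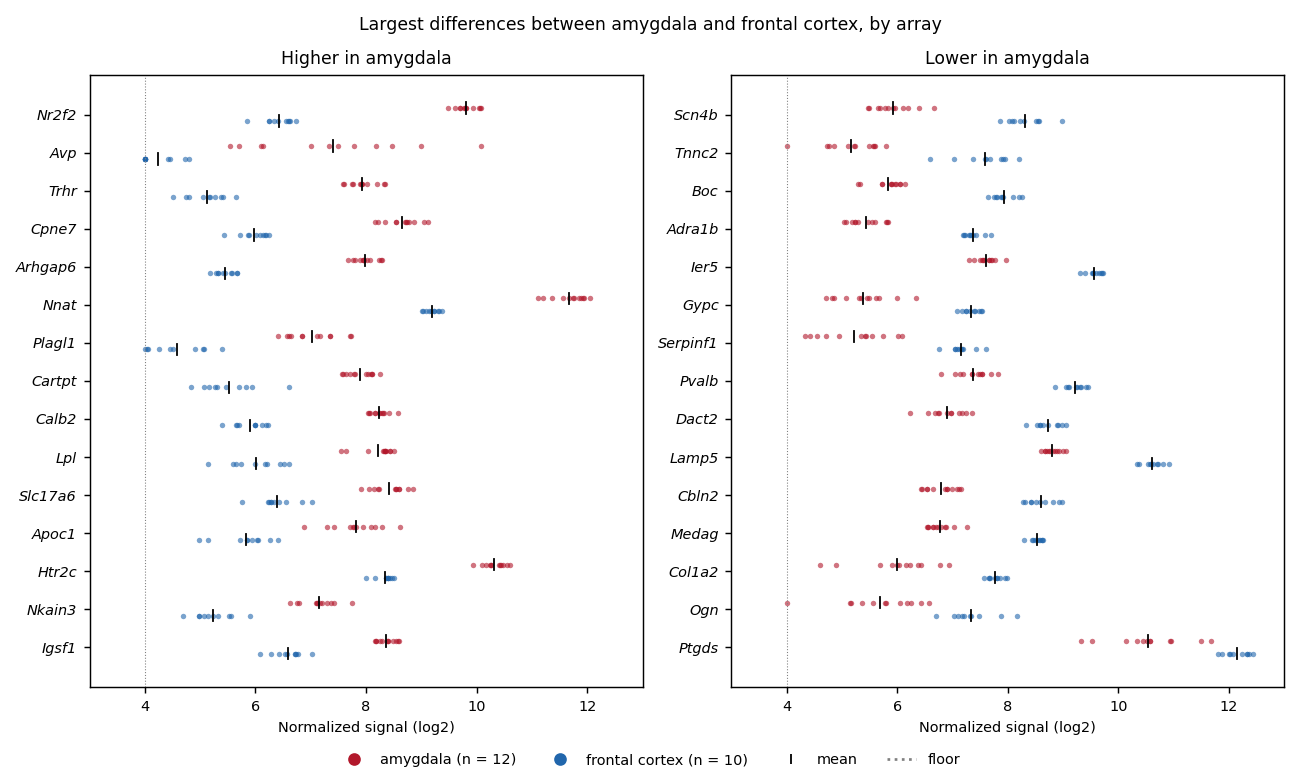
Normalized log2 signal (horizontal axis) of the 15 genes with the largest difference upward (left) and downward (right) in the amygdala, 1 point per array, with amygdala (n = 12, red) above frontal cortex (n = 10, blue), the mean as a black tick and the floor of 4 as a dotted line. The point clouds of each gene do not overlap; amygdala arrays spread widely for Avp (5.54 to 10.07), Col1a2, Ogn and Ptgds.

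In the other direction Scn4b, the beta-4 subunit of voltage-gated sodium channels, had the largest difference. Its log2 signal was 5.47 to 6.66 with a median of 5.88 on amygdala arrays, against 7.85 to 8.98 with a median of 8.25 on frontal cortex arrays. All amygdala arrays were lower than all frontal cortex arrays. The fitted difference was -2.41 (95% confidence interval -2.71 to -2.11, adjusted p = 5.58e-10), a 5.3-fold lower level in the amygdala. Pvalb, the calcium-binding protein parvalbumin of fast-spiking interneurons, had 6.80 to 7.83 with a median of 7.41 in the amygdala, against 8.86 to 9.45 with a median of 9.24 in the frontal cortex, a difference of -1.84 (adjusted p = 2.94e-10). Lamp5, a membrane protein known from upper-layer cortical neurons and a class of interneurons, had 8.60 to 9.05 with a median of 8.79, against 10.34 to 10.91 with a median of 10.60, a difference of -1.80 (adjusted p = 1.42e-13). Within each region Lamp5 varied little, with an SD of 0.14 in the amygdala and 0.18 in the frontal cortex.

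Adra1b, an alpha-1 adrenoceptor, had a log2 signal of 5.03 to 5.83 with a median of 5.38 in the amygdala, against 7.20 to 7.70 with a median of 7.32 in the frontal cortex, 3.83-fold lower (adjusted p = 4.03e-10). Boc, a co-receptor of hedgehog signalling, differed by -2.11, Dact2, a Dishevelled-binding protein, by -1.82, and Cbln2, a secreted organiser of synapses, by -1.79. Ier5, an immediate early response gene outside the list described below, had 7.29 to 7.97 with a median of 7.61 in the amygdala, against 9.30 to 9.72 with a median of 9.56 in the frontal cortex. Its arrays did not overlap either, at a difference of -1.94 (adjusted p = 4.14e-13). Medag, known from adipocyte differentiation, differed by -1.77, Gypc, a glycophorin of the membrane skeleton, by -1.93, and Tnnc2, fast skeletal troponin C, by -2.38, with 1 amygdala array at the floor for Tnnc2.

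The last 4 of the 15, Serpinf1, Col1a2, Ogn and Ptgds, encode secreted or matrix proteins: pigment epithelium-derived factor, a collagen I chain, osteoglycin and the prostaglandin D synthase of the leptomeninges. Their differences were -1.91, -1.76, -1.60 and -1.58, with 1 amygdala array at the floor for Ogn. Their spread among amygdala arrays was wider than among frontal cortex arrays, with SDs of 0.61, 0.69, 0.71 and 0.69 in the amygdala, against 0.23, 0.14, 0.42 and 0.22 in the frontal cortex. The summed meningeal and fibroblast markers, which include Col1a2 and Ogn, were 607 to 1483 units on amygdala arrays, against 1359 to 1849 on frontal cortex arrays, and their part in these differences was not tested.

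Cortical projection neuron genes were split, with more lower than higher in the amygdala. Of 37 measured genes of this list, 16 were lower (43.2%) and 8 higher (21.6%), 13 did not pass, and the median difference was -0.14 against 0.00 over all genes. Beside Lamp5, the layer-selective transcription factors Cux2 and Pou3f1 were lower. Cux2, of upper layers, had a log2 signal of 5.08 to 7.02 with a median of 6.08 in the amygdala, against 7.19 to 7.77 with a median of 7.39 in the frontal cortex, a difference of -1.29 (adjusted p = 4.73e-06). Pou3f1 differed by -1.30, Rorb of layer 4 by -1.02, Fezf2 of deep layers by -0.64, and Kcnv1, a silent potassium channel subunit, by -1.09. Tbr1 and Neurod6, transcription factors of glutamatergic neurons, differed by -1.01 (adjusted p = 0.000144) and -0.92 (adjusted p = 7.21e-06), though single arrays of the 2 regions overlapped for both.

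Other genes of the same list were higher in the amygdala. Bhlhe22, a transcription factor of cortical projection neurons, had a log2 signal of 10.12 to 10.73 with a median of 10.38 in the amygdala, against 8.60 to 9.15 with a median of 9.0 in the frontal cortex, 2.75-fold higher (adjusted p = 4.2e-11). The regions did not overlap for it, and the same held for Ntng1, an axon guidance protein (1.16), and Etv1 of layer 5 (0.62). Neurod1 and Bcl11b, a factor of subcerebral projection and striatal neurons, were higher by 1.02 and 0.83. Emx1, a homeobox gene of the dorsal telencephalon, was lower, with a difference of -1.06 (adjusted p = 2.23e-05), while its relative Emx2 did not pass, with a difference of -0.05 (95% confidence interval -0.30 to 0.20).

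The list of genes known from amygdala nuclei leaned the other way, with 15 of 36 measured genes higher (41.7%), 6 lower (16.7%), 15 not passing and a median of 0.16. The list was chosen with earlier results of these data known, so it is no independent check of the dissection against its label. Its summed signal was 7649 to 8680 units on amygdala arrays, against 5001 to 5580 on frontal cortex arrays, with no overlap. Nts, neurotensin, had a log2 signal of 6.04 to 6.75 with a median of 6.50 in the amygdala, while 9 of 10 frontal cortex arrays lay at the floor and the other at 4.67. The fitted difference was 2.34 (adjusted p = 1.03e-12), at least 5.2-fold. Lhx9, a LIM homeobox factor of the developing medial amygdala and thalamus, was measured on all 12 amygdala arrays at 5.38 to 5.89 with a median of 5.54 and lay at the floor on all 10 frontal cortex arrays, at least 2.99-fold higher (adjusted p = 1.63e-12). Cyp19a1, the aromatase that makes oestradiol, had 4.76 to 5.73 with a median of 5.11 in the amygdala, against 4.0 to 4.73 with a median of 4.15 in the frontal cortex, where 4 arrays lay at the floor. It was at least 1.95-fold higher (adjusted p = 1.18e-05), a call that was lost with a floor of 32 units.

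Several genes often used to mark amygdala nuclei gave no such difference. Prkcd, protein kinase C delta of the lateral central nucleus, had a log2 signal of 6.17 to 6.85 with a median of 6.35 in the amygdala, against 6.16 to 6.60 with a median of 6.43 in the frontal cortex. The difference was 0.01 (95% confidence interval -0.19 to 0.21), and the arrays overlapped throughout. Esr1, Oxtr and Isl1 lay at the floor on all 22 arrays, so no level of the oestrogen receptor alpha, the oxytocin receptor or Isl1 was measured in either region. Crh, corticotropin-releasing hormone, was lower in the amygdala, at 4.89 to 5.85 with a median of 5.31, against 5.93 to 6.87 with a median of 6.24 in the frontal cortex, a difference of -1.02 (adjusted p = 4.1e-06). Npy1r, a neuropeptide Y receptor, and Grp, gastrin-releasing peptide, were lower as well, with differences of -0.61 and -0.57. Zfhx4, a homeobox zinc finger factor, was lower, with a difference of -1.39 (adjusted p = 1.42e-05) while its relative Zfhx3 was higher by 0.82 (adjusted p = 0.000614).

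Patterning factors as a class held 19 of 51 measured genes that were higher (37.3%) and 11 that were lower (21.6%), with 21 not passing and a median of 0.12. Nr2f2, Lhx9, Pbx3 and Meis1 led the higher ones. Pbx3, a TALE homeobox factor, had a log2 signal of 8.12 to 8.57 with a median of 8.29 in the amygdala, against 6.55 to 7.04 with a median of 6.72 in the frontal cortex, a difference of 1.57 (adjusted p = 1.91e-12). Its arrays were fully apart. Meis1, also of the TALE class, differed by 0.87, with overlap. Nr2f1, the relative of Nr2f2, was higher by 0.44 (adjusted p = 0.00281).

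GABA neuron genes did not move together. Of 20 measured, 9 were higher (45%), 5 lower (25%) and 6 did not pass, with a median of 0.16. Calb2, Nxph1, a neurexin ligand of interneurons, and Prox1 were higher, by 2.33, 0.75 and 0.68. Htr3a, an ionotropic serotonin receptor of interneurons, was higher by 0.58 with 1 frontal cortex array at the floor, a call lost with a floor of 32 units. Pvalb, Vip, Kcnc2 and Reln were lower. Vip, vasoactive intestinal peptide, had a log2 signal of 7.56 to 8.47 with a median of 8.20 in the amygdala, against 9.13 to 9.39 with a median of 9.23 in the frontal cortex, and no array crossed between the groups (difference -1.09, adjusted p = 3.07e-09). Kcnc2, a Kv3 channel of fast-spiking cells, and Reln, reelin, differed by -0.50 and -0.37.

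Of the enzymes that make GABA, Gad1 passed the test and Gad2 did not. Gad1 was higher by 0.35 (adjusted p = 3.61e-07) without overlap on its brightest probe set, with a mean of 10.90 ± 0.11 in the amygdala (SD, n = 12) and 10.54 ± 0.11 in the frontal cortex (SD, n = 10). A dimmer Gad1 probe set gave -0.02 and did not pass. Gad2 differed by 0.15 (95% confidence interval -0.21 to 0.52). Sst, somatostatin, was higher by 0.28 (adjusted p = 0.0165), a call lost without quantile normalization, and Npy, neuropeptide Y, did not pass, with a difference of -0.18 (adjusted p = 0.0675), though it passed in 5 other settings, the deposited values without quantile normalization among them.

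Neuropeptide genes as a list were 11 higher (39.3%), 7 lower (25%) and 10 not passing of 28 measured, with a median of 0.11. The higher ones were Avp, Cartpt, Nts, Pmch, Oxt, Agt, Scg2, Penk, Hcrt, Tac1 and Sst. Penk, proenkephalin, had a log2 signal of 8.26 to 9.76 with a median of 8.96 in the amygdala, against 7.28 to 8.52 with a median of 8.02 in the frontal cortex, a difference of 1.02 (adjusted p = 0.000301) with some overlap. Tac1, the substance P precursor, differed by 0.46 (adjusted p = 0.00398). Agt, angiotensinogen, and Scg2, secretogranin II, differed by 1.43 and 1.16, and neither overlapped. The 7 lower ones were Vip, Crh, Cck, Nmb, Grp, Apln and Adcyap1, among which Cck, cholecystokinin, had 10.84 to 11.07 with a median of 10.92 in the amygdala, against 11.60 to 11.97 with a median of 11.76 in the frontal cortex. Cck was thus 1.79-fold lower (adjusted p = 1.83e-10) with no overlap.

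The 4 peptides best known from hypothalamic neurons, Avp, Oxt, Pmch and Hcrt, were higher on average and uneven from array to array. Avp, vasopressin, had a log2 signal of 5.54 to 10.07 with a median of 7.41 on amygdala arrays, while 6 of 10 frontal cortex arrays lay at the floor and the highest reached 4.81. Its fitted difference was 3.14 (95% confidence interval 2.14 to 4.14, adjusted p = 7.03e-05), at least 8.92-fold. Oxt, oxytocin, lay at the floor on all 10 frontal cortex arrays and at 4.46 to 8.26 with a median of 6.32 on amygdala arrays (at least 4.39-fold higher, adjusted p = 0.00106). Pmch, the melanin-concentrating hormone precursor, had 4.71 to 9.76 with a median of 6.62 in the amygdala, against 4.0 to 4.81 with a median of 4.69 in the frontal cortex, with 1 of those arrays at the floor (at least 4.98-fold higher, adjusted p = 0.00327). The amygdala array Sham AM replicate 1 read 10.07 for Avp, 8.26 for Oxt and 9.28 for Pmch, and Sham AM replicate 2 of the same group 5.54, 4.82 and 5.25.

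These 4 peptides also belong to the list of hypothalamic markers, where Nkx2-1 was the other gene that passed. Of its 12 measured markers, 5 were higher in the amygdala (Avp, Pmch, Oxt, Nkx2-1 and Hcrt), 0 lower and 7 did not pass, among them Hdc, Trh and Ghrh. Their summed signal ran from 275 to 2207 intensity units with a median of 631 on amygdala arrays, against 196 to 230 with a median of 207 on frontal cortex arrays. On the hypothalamus arrays of the series the means were 11.17 for Avp, 10.95 for Oxt and 12.19 for Pmch, and 8.13 for Hdc, 8.30 for Trh and 6.31 for Ghrh. Pomc and Otp lay at the floor on all 12 hypothalamus arrays, so their probe sets carry no information on that tissue here. The part of hypothalamic tissue in these differences was not tested.

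Of the 34 measured receptors of neuropeptides, 7 were higher (20.6%), 4 lower (11.8%) and 23 did not pass. After Trhr, the opioid receptor gene Oprk1 was next, at 5.07 to 5.87 with a median of 5.72 in the amygdala, against 4.0 to 4.50 with a median of 4.0 in the frontal cortex, where 6 arrays lay at the floor. It was at least 2.88-fold higher (adjusted p = 4.52e-10). Tacr1, the substance P receptor, and Hcrtr1, an orexin receptor, differed by 0.86 and 0.66. Vipr1 and Cckbr, receptors for the peptides of Vip and Cck, were lower, with differences of -0.70 (adjusted p = 2.06e-06) and -0.66 (adjusted p = 0.00467). Sstr1, a somatostatin receptor, differed by -0.25, a call lost without both Sham arrays that stood apart.

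Among monoamine and acetylcholine receptors 8 of 38 measured were higher (21.1%), 6 lower (15.8%) and 24 did not pass, with a median of -0.01. Of the serotonin receptors Htr2c, Htr4, Htr7, Htr3a and Htr5b were higher and Htr2a was lower. Htr4 had a log2 signal of 5.20 to 5.93 with a median of 5.48 in the amygdala, with 7 of 10 frontal cortex arrays at the floor (at least 2.56-fold higher, adjusted p = 8.75e-08). Htr2a, the receptor of hallucinogens that is dense in cortex, had 6.06 to 6.95 with a median of 6.53 in the amygdala, against 7.44 to 7.84 with a median of 7.55 in the frontal cortex, a difference of -1.05 (adjusted p = 1.34e-09). Htr2c, Htr4 and Htr2a each separated the 2 regions completely.

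The adrenoceptor genes that passed divided by subtype. The alpha-1 genes Adra1b and Adra1d were lower in the amygdala, Adra1d with a difference of -1.55 (adjusted p = 1.53e-08). The alpha-2 genes Adra2a and Adra2c were higher, by 0.83 (adjusted p = 9.34e-06) and 0.76 (adjusted p = 0.000356), while Adra1a, Adra2b and the beta receptor gene Adrb1 did not pass. Adra1d ran over 5.39 to 6.94 with a median of 5.83 in the amygdala, against 7.17 to 8.03 with a median of 7.46 in the frontal cortex, apart at every array. Drd1, the D1 dopamine receptor, was higher, at 6.84 to 7.43 with a median of 7.24 in the amygdala, against 5.98 to 6.49 with a median of 6.44 in the frontal cortex (difference 0.82, adjusted p = 1.17e-08). Drd2 did not pass, with a difference of 0.18 (95% confidence interval -0.23 to 0.59), with 1 amygdala array at the floor.

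Striatal genes were followed because the amygdala borders the striatum. Of 27 measured markers of medium spiny neurons, 7 were higher (25.9%), 4 lower (14.8%) and 16 did not pass, with a median of 0.09. Rxrg, a retinoid X receptor, had a log2 signal of 7.78 to 8.70 with a median of 8.26 in the amygdala, against 6.41 to 7.01 with a median of 6.80 in the frontal cortex, a difference of 1.47 (adjusted p = 1.3e-10) without overlap. Penk, Syndig1l and Drd1 were higher too, with 3 frontal cortex arrays at the floor for Syndig1l. Scn4b was lower, as were Rasd2, a small GTPase, the transcription factor Foxp1 and Arpp21, with differences of -0.93, -0.75 and -0.26. Ppp1r1b, the dopamine-regulated phosphoprotein DARPP-32, did not pass, with a difference of -0.02 (95% confidence interval -0.34 to 0.31). The summed signal of the list overlapped, at 4478 to 5641 units on amygdala arrays, against 4776 to 5958 on frontal cortex arrays.

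Ionotropic and metabotropic amino acid receptors were near balance, with 7 of 34 higher (20.6%), 8 lower (23.5%) and 19 not passing. Gria1, an AMPA receptor subunit, was higher at 8.50 to 9.26 with a median of 8.68 in the amygdala, against 7.93 to 8.25 with a median of 8.11 in the frontal cortex (difference 0.65, adjusted p = 1.2e-06). Grin3a, Grik2 and Gabra2 were higher by 1.02, 0.74 and 0.73, with overlap. Gabrd, the delta subunit of extrasynaptic GABA-A receptors, was lower, with a difference of -0.91 (adjusted p = 3.07e-07), and its frequent partner Gabra4 differed by -0.72 (adjusted p = 0.000339). Of the metabotropic receptors, Grm4 differed by -0.72 and Grm2 by -0.65 (adjusted p = 0.039), a call lost when any 1 of 13 arrays was left out.

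Potassium channel genes set how fast neurons fire and recover, and of 48 measured, 24 were lower in the amygdala (50%), 8 higher (16.7%) and 16 did not pass, with a median of -0.29. The regions did not overlap for 13 of the lower genes and 4 of the higher ones. Kcns3, a modulatory subunit found in parvalbumin neurons, had a log2 signal of 6.14 to 6.81 with a median of 6.50 in the amygdala, against 7.34 to 7.83 with a median of 7.55 in the frontal cortex, a difference of -1.05 (adjusted p = 5.07e-08). Its relative Kcns1 was at least 2.58-fold lower and Kcnh7, an ERG-family channel, at least 2.1-fold lower, with 1 and 5 amygdala arrays at the floor. Kcna1, a Kv1 channel of axons, Kcnc1, a Kv3 channel, and Kcnq5, of the M current, were lower, with differences of -0.70, -0.30 and -0.68. Kcnj9 and Kcnk4, an inward rectifier and a 2-pore channel, differed by -0.90 and -0.95. The summed signal of the list was 8721 to 9859 units on amygdala arrays, against 11129 to 11891 on frontal cortex arrays, with no overlap. Kcnj16, an inward rectifier of glia, and Kcnd3 and Kcnip2, a pore and an auxiliary subunit of A-type currents, were higher by 1.48, 0.92 and 0.65, all without overlap.

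Adhesion and axon guidance genes differed often and in both directions, with 21 of 62 higher (33.9%), 19 lower (30.6%) and 22 not passing. Nrp2, a semaphorin receptor, had a log2 signal of 7.40 to 8.03 with a median of 7.82 in the amygdala, against 5.92 to 6.25 with a median of 6.16 in the frontal cortex, a difference of 1.66 (adjusted p = 5.75e-11). Efnb3, an ephrin, was higher by 1.56. Ephb6, a kinase-dead ephrin receptor, had 6.41 to 7.05 with a median of 6.67 in the amygdala, against 8.03 to 8.57 with a median of 8.24 in the frontal cortex, a difference of -1.58 (adjusted p = 4.91e-10). Both extremes were free of overlap. The cadherin Cdh6 was at least 2.76-fold lower with 5 amygdala arrays at the floor, and Cdh12 was lower, with a difference of -1.27. Efna5, an ephrin of topographic mapping, was lower, with a difference of -0.92. Cdh22 was higher by 1.06 on its brightest probe set, and another Cdh22 probe set gave 0.01.

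Genes of steroid and thyroid hormone action were measured because the treatments concern the adrenal axis. Of 21 measured, 6 were higher (28.6%), 3 lower (14.3%) and 12 did not pass, with a median of 0.00. The mineralocorticoid receptor gene Nr3c2 was higher, at 7.58 to 8.39 with a median of 7.94 in the amygdala, against 7.32 to 7.82 with a median of 7.55 in the frontal cortex (difference 0.41, adjusted p = 0.000652). The glucocorticoid receptor gene Nr3c1 did not pass, at 8.06 to 8.77 with a median of 8.52, against 7.66 to 8.56 with a median of 8.45 (difference 0.15, 95% confidence interval 0.00 to 0.31, adjusted p = 0.171). Fkbp5, a glucocorticoid-induced chaperone, did not pass, with a difference of -0.04 (95% confidence interval -0.26 to 0.19). Thra, a thyroid hormone receptor, was higher by 0.57 while another of its probe sets gave -0.01, and Thrb was lower, with a difference of -0.31. Pgr, the progesterone receptor, was lower, with a difference of -0.50 (adjusted p = 0.0498), and leaving out any 1 of 15 arrays ended that call.

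Sult1a1, a sulfotransferase known to be induced by glucocorticoids in rat liver, was lower in the amygdala, with a difference of -0.74 (adjusted p = 0.000128), a call lost in the fit without covariates. Its means were 5.07 in ADX amygdala and 6.21 in ADX frontal cortex, 6.92 and 7.52 in pADX, and 7.24 and 7.86 in Sham. The amygdala had the lower mean in all 3 treatments.

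Immediate early genes, which neurons switch on within minutes of activity, were lower in the amygdala for 13 of 20 measured (65%) and higher for 2 (10%), with 5 not past the test and a median of -0.55. Their transcription is known to be driven by CREB at cAMP response elements and by serum response factor at CArG boxes. The 250 bases before the annotated start are printed for Egr1, Egr2 and Nr4a1, the lower genes named by rule that the RefSeq promoter table of build GRCr8 holds, to show where such letters lie. Capitals mark the half-site TGACG or its reverse complement CGTCA and the CArG box, searched on both strands. The windows are chr18:26736828-26737077 on the plus strand for Egr1, chr20:21054442-21054691 on the minus strand for Egr2 and chr7:134259888-134260137 on the plus strand for Nr4a1.
Egr1: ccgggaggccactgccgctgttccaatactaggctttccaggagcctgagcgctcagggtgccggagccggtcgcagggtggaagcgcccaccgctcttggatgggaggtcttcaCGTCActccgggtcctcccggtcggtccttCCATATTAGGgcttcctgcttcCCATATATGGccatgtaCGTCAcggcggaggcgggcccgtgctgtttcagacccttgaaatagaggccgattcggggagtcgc
Egr2: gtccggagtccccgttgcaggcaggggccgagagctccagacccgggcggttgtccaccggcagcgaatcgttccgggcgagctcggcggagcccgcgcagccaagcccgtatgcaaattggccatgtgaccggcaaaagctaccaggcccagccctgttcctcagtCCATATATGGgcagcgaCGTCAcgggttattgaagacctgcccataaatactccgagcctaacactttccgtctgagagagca
Nr4a1: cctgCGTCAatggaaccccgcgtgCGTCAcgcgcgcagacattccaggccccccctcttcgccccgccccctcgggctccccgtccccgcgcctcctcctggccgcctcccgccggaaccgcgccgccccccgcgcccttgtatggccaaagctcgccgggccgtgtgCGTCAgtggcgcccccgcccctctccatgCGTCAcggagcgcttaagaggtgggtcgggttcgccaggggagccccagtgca
The Egr1 window held 2 half-sites and 2 CArG boxes, that of Egr2 1 of each, and that of Nr4a1 4 half-sites and 0 CArG boxes. Of the 20 measured genes 15 matched the table, and 11 of these were among the lower ones. A half-site lay in 8 of the 11 windows (72.7%) and in 10 of all 15 (66.7%), against 18.2% of 33469 promoter windows of the same length. A CArG box lay in 2 of the 11 (18.2%) and in 2 of the 15 (13.3%), against 1.5%. The 2 windows with a CArG box were those of Egr1 and Egr2. The list counts took 1 window per gene, while the background took every promoter window. This control was known for such genes beforehand, so the counts say nothing on the regional difference. Lower members were not tested against the others. A palindromic TGACGTCA counts on both strands. These matches are letters in a window, and no binding was measured.

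Egr1, a zinc finger transcription factor, had a log2 signal of 9.32 to 10.03 with a median of 9.69 in the amygdala, against 10.48 to 11.24 with a median of 10.89 in the frontal cortex. The lowest frontal cortex array stood above the highest amygdala array, and the difference was -1.21 (95% confidence interval -1.40 to -1.01, adjusted p = 2.19e-08). Nr4a1, an orphan nuclear receptor, had 6.54 to 7.18 with a median of 6.82, against 7.59 to 8.59 with a median of 7.80, a difference of -1.08 (adjusted p = 3.95e-09), also without overlap. Arc, a synaptic protein of plasticity, had 5.84 to 7.32 with a median of 6.36 in the amygdala, against 7.08 to 8.69 with a median of 7.80 in the frontal cortex, a difference of -1.35 (adjusted p = 2.22e-06). Single arrays of the regions crossed for Arc and for Egr2, which differed by -1.27 (adjusted p = 6.98e-07). Fos, the AP-1 subunit, Dusp1, a phosphatase of MAP kinases, and Egr4 were lower, with differences of -0.99, -1.02 and -0.86. Homer1, a postsynaptic scaffold, Bdnf, a neurotrophin, and Junb were lower too, with differences of -0.73, -0.38 and -0.34. Fosb, Egr3, Jund, Fosl2 and Nr4a3 did not pass.

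The list was not uniform. Jun was higher in the amygdala, at 8.64 to 8.86 with a median of 8.78, against 8.22 to 8.62 with a median of 8.33 in the frontal cortex, a difference of 0.42 (adjusted p = 2e-07) with no overlap, and Nr4a2, the nuclear receptor Nurr1, was higher by 0.80 (adjusted p = 7.61e-05). For Arc, AM means were 6.16 in the amygdala and 7.17 in the frontal cortex, and PM means 6.65 and 8.28. The change of the Arc difference with time of day did not pass the test. Without both Sham arrays that stood apart 12 of the 20 were lower. The summed signal of the list ran from 5084 to 6738 units on amygdala arrays, against 7722 to 9610 on frontal cortex arrays, with no overlap.

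**Figure D2:**
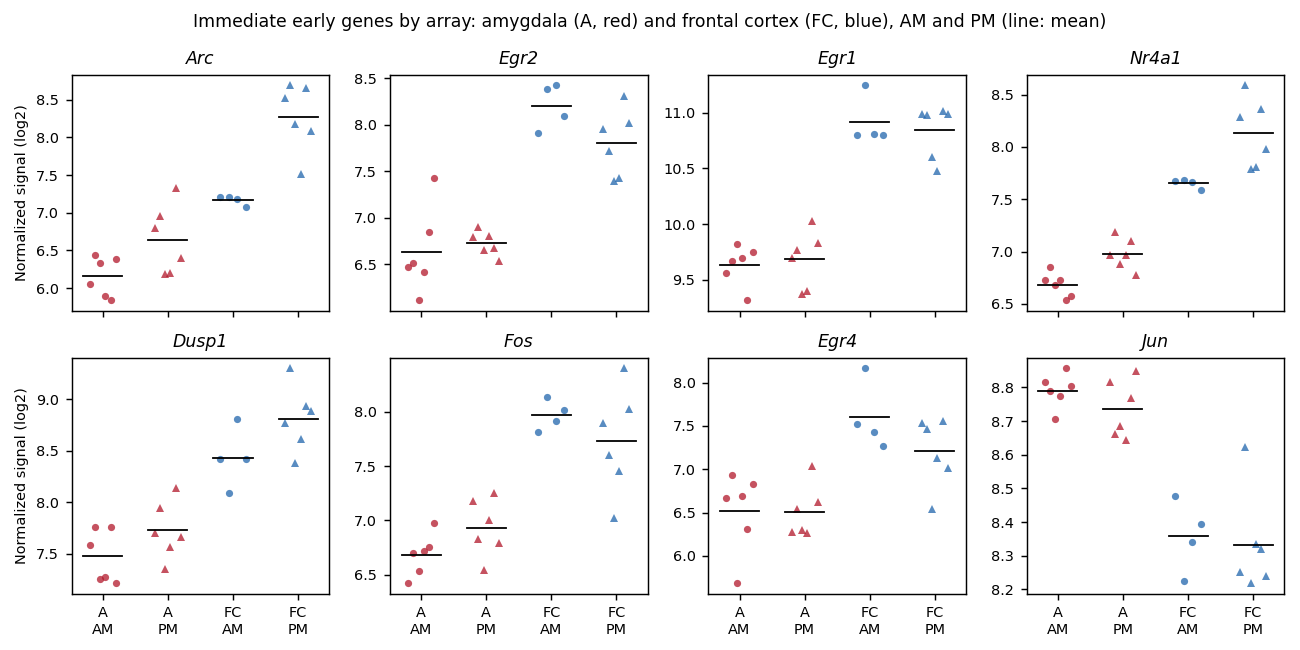
Normalized log2 signal (vertical axis) of 8 immediate early genes, 1 point per array, with amygdala (A, red, n = 6 AM and 6 PM) left of frontal cortex (FC, blue, n = 4 AM and 6 PM), circles for AM, triangles for PM and lines for means. Arc, Egr2, Egr1, Nr4a1, Fos and Egr4 lie lower in the amygdala at both times, Egr1 by 1.21 log2 units, while Jun lies higher by 0.42.

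Markers of neighbouring tissues differed between the regions as well. Choroid plexus is the epithelium that makes cerebrospinal fluid, and 5 of its 8 measured markers were higher in the amygdala, 0 lower, with 3 not passing. Ttr, transthyretin, its most abundant product, had a log2 signal of 7.54 to 12.86 with a median of 12.42 in the amygdala, against 4.40 to 7.69 with a median of 5.18 in the frontal cortex, a difference of 6.33 (95% confidence interval 5.14 to 7.51, adjusted p = 1.22e-07). The lowest amygdala array, Sham PM replicate 2 at 7.54, lay just below the highest frontal cortex array, also Sham PM replicate 2, at 7.69. The summed markers ran from 319 to 8245 units with a median of 5930 on amygdala arrays, against 150 to 371 with a median of 167 on frontal cortex arrays. Folr1, a folate receptor, was higher by 1.78. Sostdc1, Steap1 and Otx2 were higher by 2.94, 0.80 and 0.72, with 1, 1 and 3 amygdala arrays and 5, 3 and 10 frontal cortex arrays at the floor, and 0 of the 5 separated the regions at every array. On amygdala Sham PM replicate 2, where Ttr was lowest, Nr2f2 read 10.05, Calb2 8.25 and Htr2c 10.10 beside amygdala medians of 9.80, 8.24 and 10.33. These are readings of 1 array, which also had the lowest ependymal and hypothalamic sums of the amygdala arrays, 254 and 275 units. The part of choroid plexus tissue in Nr2f2, Calb2, Htr2c and other genes was not tested.

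Ependymal markers, of the ciliated cells that line the ventricles, were higher for 7 of 7 measured, with a median of 0.85 and sums of 254 to 476 units on amygdala arrays, against 146 to 216 on frontal cortex arrays. Tekt1, a ciliary protein, had a log2 signal of 5.71 to 6.41 with a median of 6.07 in the amygdala, against 4.0 to 4.99 with a median of 4.15 in the frontal cortex, with 5 of those arrays at the floor (at least 3.48-fold higher, adjusted p = 6.74e-09). With a floor of 32 units 3 of the 7 remained past the test.

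Meningeal and fibroblast markers ran the other way, with 7 of 11 lower in the amygdala, 1 higher (Lum, 0.68) and 3 not passing, and a median of -0.89. The 2 lowest amygdala values for Col1a2, 4.90 and 4.59, belonged to both pADX AM arrays. Dcn, a fibroblast proteoglycan, did not pass, with a difference of 0.16. Endothelial markers were lower for 7 of 9 with 0 higher and a median of -0.59, summed to 907 to 1212 units on amygdala arrays, against 1534 to 1828 on frontal cortex arrays. Cldn5, the tight junction protein of brain vessels, was lower, with a difference of -0.77 (adjusted p = 2.92e-07) with no overlap. Blood markers were lower for 2 of 5 (Alas2 and Hbb), with sums of 479 to 2989 units in the amygdala, against 808 to 3851 in the frontal cortex.

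**Figure D3:**
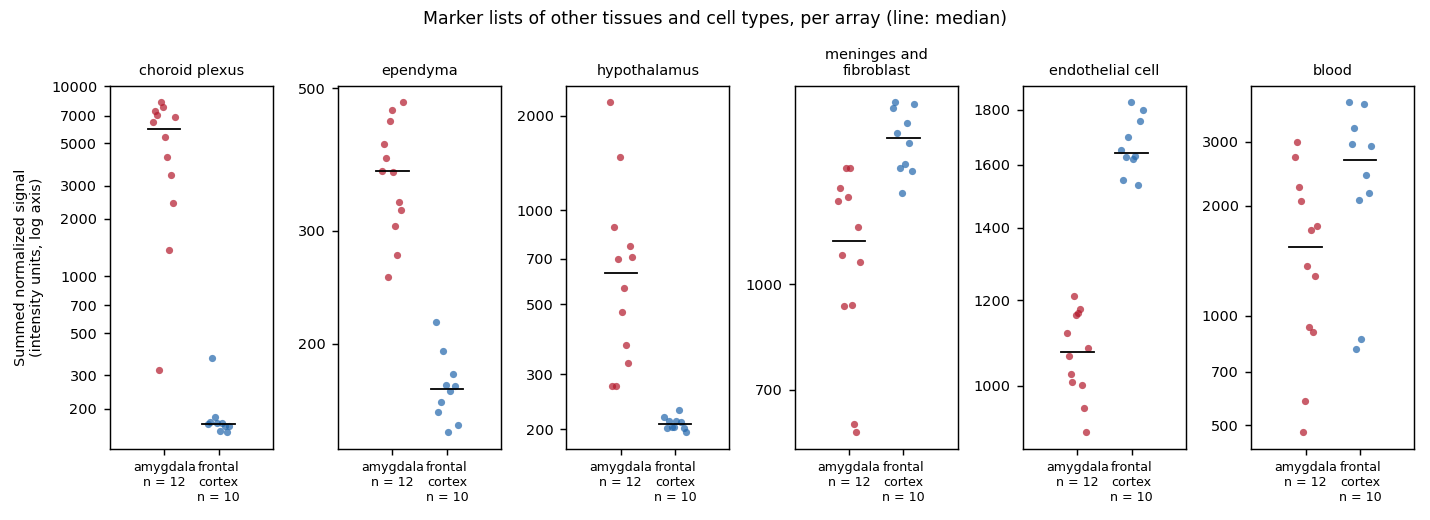
Summed normalized signal in intensity units (vertical log axis, its range set per panel) of 6 marker lists, 1 point per array, with amygdala (n = 12, red) left of frontal cortex (n = 10, blue) and lines for medians. Choroid plexus, ependymal and hypothalamic sums lie higher in the amygdala (medians 5930, 371 and 631 against 167, 170 and 207), meningeal and endothelial sums lower.

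Glial, pan-neuronal and further regional markers moved in both directions. Oligodendrocyte markers were higher for 4 of 14 and lower for 0, and Mbp, myelin basic protein, did not pass, with a difference of 0.06 (95% confidence interval -0.06 to 0.18). Astrocyte markers were 2 higher and 3 lower of 12, with Gfap higher by 0.31 (adjusted p = 0.0241), a call lost without quantile normalization. Microglial and macrophage markers were lower for 2 of 11 (Cd74 and Cx3cr1). Of 9 pan-neuronal markers 1 was higher and 4 lower, and Snap25, a synaptic vesicle fusion protein, was lower, with a difference of -0.28 (adjusted p = 0.00181). Thalamic markers were 4 higher and 2 lower of 10, hippocampal 2 and 1 of 7, pallidal and basal forebrain 1 and 2 of 7, and olfactory bulb markers 0 and 2 of 6. The thalamic 4 were Calb2, Slc17a6, Lhx9 and Tcf7l2, of which Calb2, Lhx9 and Tcf7l2 also stand in other lists here, and the sums of the thalamic list were 998 to 1333 units on amygdala arrays, against 582 to 793 on frontal cortex arrays. The thalamic markers Gbx2, Lef1 and Tnnt1 did not pass. Of the hippocampal list Fibcd1, a marker of CA1, was at least 6.42-fold higher (adjusted p = 7.18e-11) with 8 frontal cortex arrays at the floor, with list sums of 452 to 608 units in the amygdala, against 362 to 549 in the frontal cortex. The part of thalamic and hippocampal tissue was not tested.

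**Figure D4:**
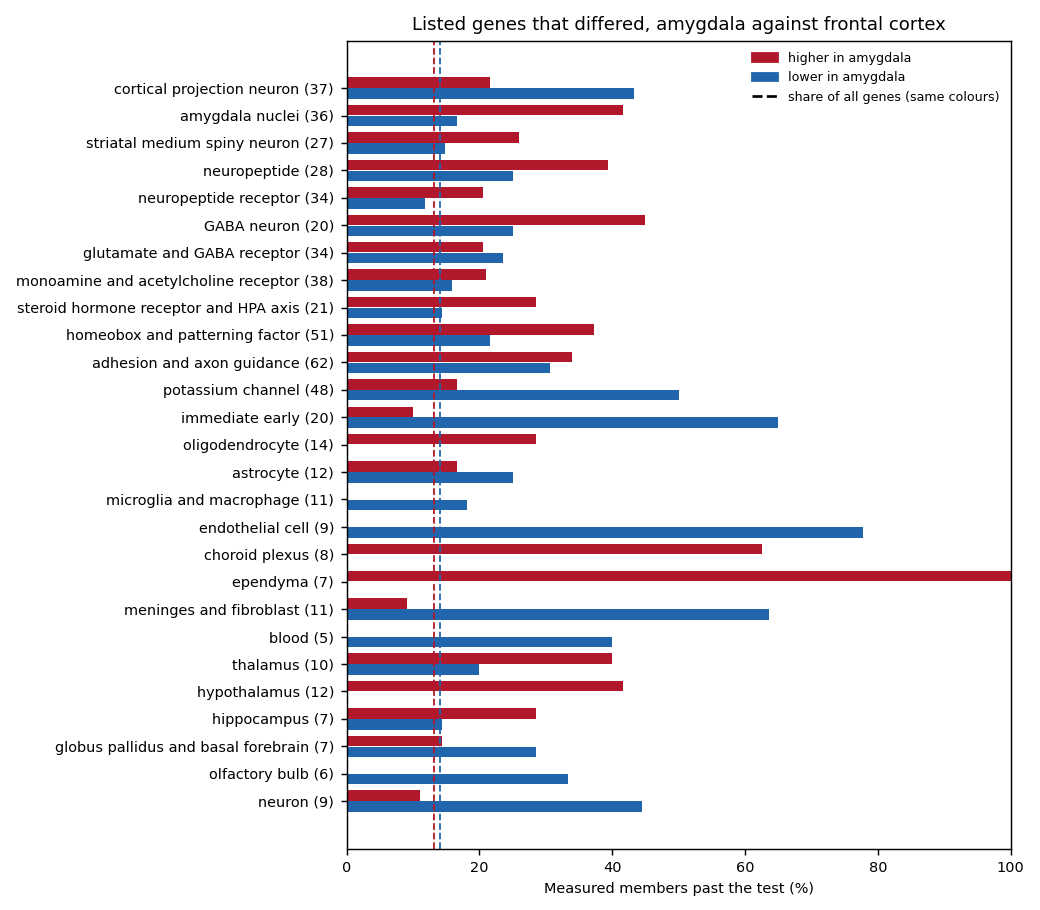
Share of measured members (horizontal axis, %) of 13 gene lists and 14 marker lists (number measured in brackets) that were higher (red, upper bar) or lower (blue, lower bar) in the amygdala at an adjusted p below 0.05. Dashed lines give the shares among all genes, 13.2% higher and 14.1% lower; potassium channel and immediate early genes had 50% and 65% lower.

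The regional difference was tested for dependence on treatment and on time of day. By limma's moderated F test 1 probe set depended on treatment at an adjusted p of 0.05 (0.00322%), with 2270 at an unadjusted p below 0.05, and the single contrasts gave 2 calls for ADX minus Sham (0.00644%) and 1 for pADX minus Sham (0.00322%). The call was Tnfrsf26, a receptor of the tumour necrosis factor family, with means of 4.04, 4.02 and 4.0 in ADX, pADX and Sham amygdala and 4.07, 4.02 and 4.46 in ADX, pADX and Sham frontal cortex, all near the floor. Its adjusted p was 0.0153, and it was also the call of the pADX contrast and 1 of the 2 of the ADX contrast. The other was a probe set of Adprhl1, named after its values were seen, with 10 of 12 amygdala arrays at the floor (adjusted p = 0.048). By time of day 1 probe set was called (0.00322%), with 1425 at an unadjusted p below 0.05. It was Mamdc2, at the floor on 11 of 12 amygdala arrays, with frontal cortex means of 5.25 at AM and 4.25 at PM (adjusted p = 0.0396). Next in order by time, without passing, came Ptpn3, Mas1, Rasd1, Rassf9 and Prss30, and by treatment Eva1b, Prrx2, Shc3, Arhgap12 and Cpeb4. These counts rested on single arrays. Without frontal cortex Sham PM replicate 1 the treatment count was 729, and without amygdala Sham AM replicate 2 it was 0. The fit with 729 kept only the 2 arrays that stood apart as Sham frontal cortex. Without those 2 only 1 Sham frontal cortex array remained, so no treatment count is given.

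The arrays of the 2 regions did not overlap for Nr2f2, Scn4b, Lamp5 and Egr1. Their direction within each treatment was therefore fixed in advance, and only the sizes are given. Nr2f2 was higher in the amygdala by 3.17 in ADX, 3.29 in pADX and 3.77 in Sham. Scn4b differed by -2.15, -2.39 and -2.68, Lamp5 by -1.68, -1.81 and -1.93, and Egr1 by -1.21, -1.17 and -1.25 in the same order of treatments.

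Levels in the other regions place the 2 described here. The septum shares their deposited scale, and the remaining 4 regions were brought to it only by quantile normalization. Nr2f2 averaged 9.82 in the amygdala, above all 6 other regions, of which the hypothalamus was next at 8.98 and the septum at 5.95. Cyp19a1 at 5.17 was likewise highest in the amygdala, with means of 4.35 or lower elsewhere. For Slc17a6 the amygdala at 8.41 and the frontal cortex at 6.39 lay below the hypothalamus at 10.69. Ttr averaged 11.75 in the amygdala, 5.34 in the frontal cortex, 12.34 in the hippocampus and 7.24 in the septum.

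The frontal cortex was the extreme region for other genes. Its means were the highest of the 7 for Lamp5 at 10.61, Medag at 8.52, Boc at 7.92, Egr1 at 10.87 and Arc at 7.83, beside 8.81, 6.77, 5.83, 9.66 and 6.40 in the amygdala. Nnat averaged 11.67 in the amygdala and was lowest in the frontal cortex at 9.19, below the next lowest, the hippocampus at 10.31. The frontal cortex mean was also lowest for Trhr, Cpne7, Arhgap6, Plagl1, Cartpt and Calb2 among the genes with the largest difference upward. The same held for Slc17a6, Apoc1, Htr2c, Nkain3 and Igsf1, but not for Nr2f2, Avp and Lpl. Among all these genes the amygdala mean was highest for Nr2f2, Trhr, Cpne7, Arhgap6 and Lpl. Scn4b was lowest in the amygdala at 5.93, with 8.31 in the frontal cortex and 8.41 in the septum. Pvalb had 7.37 in the amygdala, 9.21 in the frontal cortex and 7.04 in the septum. These orders across 7 regions are given as means, with no test of neighbours.

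**Figure D5:**
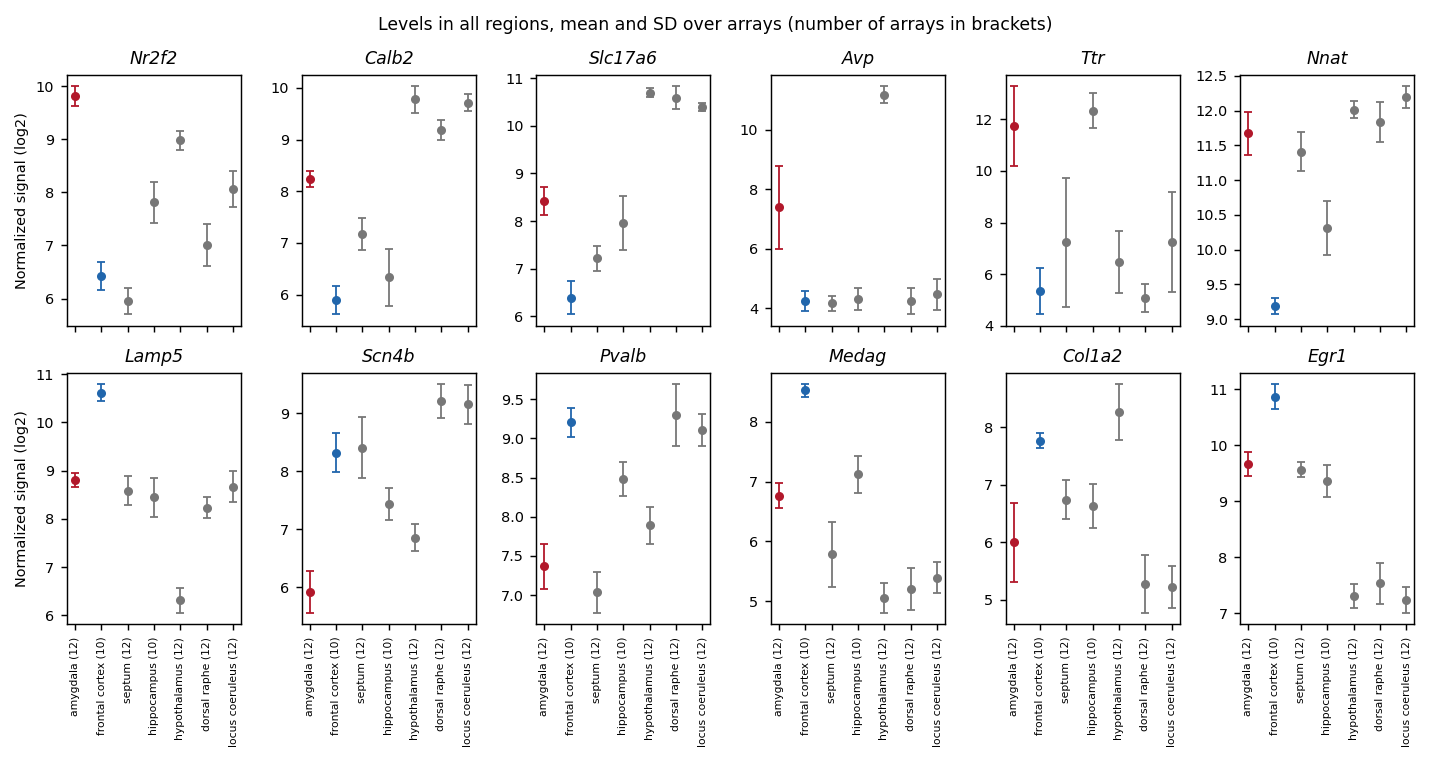
Mean normalized log2 signal and SD (vertical axis) of 12 genes in the 7 regions of the series, with the number of arrays in brackets; amygdala (red) is first and frontal cortex (blue) second. Nr2f2 is highest in the amygdala at 9.82, Lamp5, Medag and Egr1 are highest in the frontal cortex, and Avp reaches 11.17 in the hypothalamus.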

How the data were processed

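Total RNA of rat brain was measured on 82 arrays with 31099 probe sets. The authors deposited 1 linear intensity per probe set and array; the sources used here do not give the software or scaling behind them. Region, treatment and time were read from the titles, checked against the source names, and titles with a letter b were taken as replicate 2. Region was taken from the code after the time of day. The opening words of septum, dorsal raphe and locus coeruleus titles name the frontal cortex instead. Those of hypothalamus titles name the left hippocampi. The code was used in each case. The labels do not say that arrays come from separate animals, so p-values measure only the spread between these arrays, which may be technical, and the number of arrays limits the precision. Quantile normalization ran over the 82 arrays; values below 16 were then raised to 16, a floor of 4 after taking log2, and 27.5% of values lay there. A fold change against arrays at the floor is written "at least". The 57 control probe sets were left out. With limma 3.58.1 (R 4.3.3), lmFit and eBayes(trend) fitted region with treatment and time of day as covariates, with Benjamini-Hochberg adjustment over 31042 probe sets. The design was first tested on simulated data. Of the probe sets 20826 carried 1 gene symbol, 436 several and 9780 none; 20758 matched RefSeq genes of assembly GRCr8, used for names and promoters. A gene is represented by its brightest probe set. Named are the 15 genes in each direction with the largest difference among those past the threshold, without overlap and with a mean of at least 7 in the higher region; up to 4 per gene list and direction; a set of anchor genes; and up to 6 per interaction test. Other list and marker members given with values (such as Oxt, Dlk1, Agt, Fos, Tekt1, Rorb and Emx2) were chosen after their values were seen. The comparison, the gene lists and the marker lists were chosen with earlier results of these data known. Alternatives covered normalization, floor, filter, covariates, replicate block, subsets of arrays and leaving out each array.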

Additional observations from a re-analysis of the deposited data

Results flagged for a closer look

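The grouped frontal cortex arrays were examined for an outlying array on 31 measures, and 1 measure gave one. The measures were the 15 genes named in each direction and the mean correlation with the other arrays of the region. Amygdala arrays were not examined in this way. The genes were selected for non-overlap and share the same arrays, so the chance rate of about 1 in 20 need not hold. Frontal cortex Sham PM replicate 2 had a mean correlation of 0.924 with the other frontal cortex arrays, the next lowest array had 0.952 and the highest 0.971. That array also held the highest frontal cortex value of Ttr, 7.69 on the log2 scale.

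Tnfrsf26 differed between treatments in its regional difference (limma's moderated F test, adjusted p = 0.0153), with 9 of 12 amygdala and 5 of 10 frontal cortex arrays at the floor. Its means were 4.0 on the 4 Sham arrays of the amygdala and 4.46 on the 3 Sham arrays of the frontal cortex.

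Mamdc2 differed between the times of day in its regional difference (limma, adjusted p = 0.0396), by 0.99 log2 units between PM and AM, with 11 of 12 amygdala arrays and 1 of 10 frontal cortex arrays at the floor.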

How the results depend on the processing

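The count of 6973 probe sets stayed within 1.5 times under 12 other settings, from 5583 (13277 probe sets with a mean above 6) to 7397 (log2 of the value plus 16), with 7172 on the deposited values without quantile normalization, where 55.4% of calls were higher in the amygdala, against 48.7%. It was 4078 with 1 probe set per gene, 3220 and 2945 in AM and PM arrays alone, 2048, 1559 and 630 in pADX, ADX and Sham arrays alone, and 3042 and 1674 in titles with and without the letter b; each of these tests fewer probe sets or fewer arrays. Leaving out single arrays gave 6156 to 6942. The count by treatment was 2 on the deposited values, 195 without the 2 Sham arrays that stood apart (an alternative chosen after seeing the data) and 0 to 729 without single arrays, the highest without frontal cortex Sham PM replicate 1; leaving out 4 other frontal cortex arrays gave 22 (Sham PM replicate 2), 12 (ADX PM replicate 2), 11 (Sham AM replicate 2) and 8 (ADX AM replicate 2). By time of day it was 0 on the deposited values and with a replicate block, 3 without those 2 Sham arrays, and 0 to 12 without single arrays (12 without frontal cortex ADX AM replicate 2); the cause of these moves was not tested. The labels do not say whether same-numbered arrays of the 2 regions come from the same animals: the correlation of their deviations was 0.0255 to 0.329 over 10 pairs, over 0.1 in 7, and highest with the own number in 5. With the replicate block the region count was 5955 as a fixed term and 7210 as a random one, and that by treatment 1.

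Of 138 named genes 123 passed the test; 40 of these passed in every setting and 83 missed it in 1 or more. Only Tnfrsf26 turned direction, to 0.0017 in pADX arrays alone, where its means lay near the floor. Calls were lost for Cyp19a1, Htr3a, Chrna5 and Kcnn3 with a floor of 32, for Reln and Pgr with the fixed block, for Sst, Gfap, Grm2, Pgr and Chrna5 on the deposited values, for Sult1a1 and Chrna5 without covariates and for Sstr1 without the 2 Sham arrays, beside genes named for the interaction tests. Of the 15 that did not pass, 4 passed in some setting (Npy, Gad2, Cpeb4 and Mas1). Leaving out single arrays ended calls for Pgr, Grm2, Ptpn3, Tnfrsf26, Prss30 and Gfap. Signals near the floor limit what can be seen: Esr1, Oxtr and Isl1 have no measured level, and folds written as "at least" are bounds from the group means.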

Other observations

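The 2 frontal cortex arrays without a treatment or time in their titles entered no comparison. Their log2 signals were 6.54 and 6.54 for Nr2f2, 8.16 and 8.09 for Scn4b, 10.44 and 10.40 for Lamp5 and 9.17 and 9.03 for Pvalb. These values lay within the range of the 10 grouped frontal cortex arrays and outside that of the 12 amygdala arrays for all 4 genes. Ttr stood at 5.16 on 1 of them and 4.25 on the other, the second below the lowest grouped frontal cortex array at 4.40, and Avp at 4.57 on 1 and at the floor on the other.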
